A study of Mus musculus with 6 samples.

Results

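The genes that build the perineuronal and perinodal matrix were followed in the hippocampus of mice injected with substance P (SP). These 10 genes were picked by name from the 55421 genes of the deposited count table. They encode the 4 lecticans (*Acan*, *Bcan*, *Ncan* and *Vcan*), 3 hyaluronan link proteins (*Hapln1*, *Hapln2* and *Hapln4*), tenascin R (*Tnr*) and the hyaluronan synthases *Has2* and *Has3*. Hippocampal RNA was sequenced from 3 mice that received SP (10 µM, 100 µL) under the skin on 14 days and from 3 that received an equal volume of saline, called vehicle. All were wild-type male C57BL/6N mice, 8 to 10 weeks of age when used, and each gave 1 library. Mice carry a number from 1 to 3 that the labels name a batch, which pairs 1 SP mouse with 1 vehicle mouse. Directions are those of the column names and sample labels as deposited. No transgene or deletion marks the SP mice, so no engineered change in the counts shows which columns are SP. The study reports the myelin genes *Mbp* and *Mag* as lower with SP. In the deposited counts both were higher in the columns labelled SP. Whether the labels of the groups were exchanged was not tested. If they were, each direction given here would turn, those of *Hapln2* and the myelin markers included.

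Perineuronal nets are lattices of extracellular matrix that wrap the soma and dendrites of certain neurons, above all parvalbumin interneurons and, in the hippocampus, CA2 pyramidal cells. Their backbone is hyaluronan, a long sugar polymer spun out by synthases in the plasma membrane. Lecticans, which are chondroitin sulfate proteoglycans, bind hyaluronan at one end and tenascin R at the other, and link proteins lock the lectican onto the hyaluronan. A related matrix, built with *Hapln2*, versican and brevican, surrounds the nodes of Ranvier of myelinated axons. Perineuronal nets are known to restrict synaptic plasticity in the adult brain.

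In these libraries *Hapln2* was the tested member with the largest difference between the groups, 1.42-fold higher with SP (log2 fold change 0.51, standard error 0.105). *Hapln4* and *Bcan* were 1.13-fold and 1.08-fold higher. For these 3 tested genes each SP library lay above each vehicle library, as it did for 9.30% of all tested genes. The other lecticans, *Tnr*, *Hapln1* and *Has3* overlapped between the groups. No member passed the thresholds of FDR < 0.1 and |log2FC| > 0.3 in edgeR's quasi-likelihood test with the replicate number as a block. The same test called 0 of 16707 genes (0%), while 1705 genes (10.2%) had an unadjusted p under 0.05. DESeq2 with the block called 26 genes (0.0927%), and none of them was a member. In that fit *Acan*, *Vcan*, *Hapln1*, *Hapln2* and *Has3* got no adjusted p, so that they could not be called. EdgeR without the block called 2 genes (0.012%), again without a member.

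In the genome, 3 of the lecticans sit beside one of the link protein genes. The positions are from GENCODE M21 on GRCm38. *Bcan* (chromosome 3 from 87987531 to 88000230) and *Hapln2* (chromosome 3 from 88021750 to 88027583) are both on the minus strand with 21519 bases between them. *Ncan* (chromosome 8 from 70093085 to 70120873, minus strand) is 2222 bases from *Hapln4* (chromosome 8 from 70083457 to 70090862, plus strand), tail to tail. *Vcan* (chromosome 13 from 89655312 to 89742509, minus strand) is 43659 bases from *Hapln1* (chromosome 13 from 89539796 to 89611652, plus strand). No other protein-coding gene lies within any of these 3 gaps. *Acan* (chromosome 7 from 79053483 to 79115099, plus strand) is 2 bases from *Hapln3*, a link protein gene outside the 10. *Tnr* (chromosome 1 from 159523769 to 159931729, plus strand), *Has2* (chromosome 15 from 56665627 to 56694539, minus strand) and *Has3* (chromosome 8 from 106870242 to 106884566, plus strand) share exonic bases with a gene on the opposite strand. The library kit keeps strand, but the strand setting of the counting is not given in the sources used here. At most 0.966% of the 31-base sequences of any member, that of *Ncan*, occur in another gene on the same strand as transcribed, a measure that leaves overlap with the opposite strand out.

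The promoters of the neighbours *Hapln2* and *Bcan* are shown because one of them belongs to the tested member with the largest difference and the other to a gene next door that differed far less. RefSeq promoters were found for 7 of the 10 members. Each sequence holds the 250 bases before the RefSeq start on GRCm38.p6, minus strand, 5′ to 3′. The *Hapln2* window is chr3:88027512-88027761 and the *Bcan* window is chr3:88000357-88000606. Capitals mark a match on either strand to one of 4 short motifs. The SOX-type motifs searched were spelled ACAAAG and, in a variant form, ACAATG. The GC box searched was GGGCGG, and the TATA box searched was TATAAA. No matches overlapped each other in these windows.
Hapln2: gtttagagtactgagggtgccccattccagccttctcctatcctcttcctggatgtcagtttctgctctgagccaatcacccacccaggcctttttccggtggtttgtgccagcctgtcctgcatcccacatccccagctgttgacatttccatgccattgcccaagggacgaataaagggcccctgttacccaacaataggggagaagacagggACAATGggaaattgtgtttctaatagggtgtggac
Bcan: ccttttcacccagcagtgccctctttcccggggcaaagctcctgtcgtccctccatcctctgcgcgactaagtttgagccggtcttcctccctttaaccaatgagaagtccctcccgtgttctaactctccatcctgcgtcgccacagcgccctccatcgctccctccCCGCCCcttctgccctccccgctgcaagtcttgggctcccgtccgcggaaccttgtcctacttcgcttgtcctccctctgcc
The *Hapln2* window held the SOX-type letters ACAATG, which begin 35 bases before the start and occur in 10.7% of 32851 RefSeq promoters in a window of that length. This match lies inside the *Hapln2* gene of GENCODE M21, which reaches 88027583 and so overlaps part of the window. The *Bcan* window held a GC box on the opposite strand, a match found in 32.7% of promoters. In G and C content the windows were 52.4% for *Hapln2* and 62.0% for *Bcan*. *Tnr* was the other member with a SOX-type match (ACAAAG, in 16.5% of promoters), and *Acan*, *Ncan* and *Vcan* each had at least 1 GC box. *Ncan* also held a TATA box match, as did 12.4% of promoters, in a part of its window that lies inside the GENCODE M21 gene. *Hapln1* had no match to these letters in its window, which lies wholly inside the GENCODE M21 gene. Such a match describes the letters and not the binding of a factor.

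Expression is given as CPM, the rounded counts scaled to the library size after TMM normalization by edgeR. The libraries held from 22349964 to 27605935 counts, so that a count of 3, taken as the limit that a count of 0 allows, corresponds to 0.109 to 0.135 CPM. This limit covers counting error only. Per kilobase of merged exons, the order of the members was *Bcan*, *Ncan*, *Hapln4*, *Tnr*, *Hapln2*, *Hapln1*, *Vcan*, *Acan*, *Has3* and *Has2*. The mean over the 6 libraries ran from 57.3 CPM per kilobase for *Bcan* to 0.0758 CPM per kilobase for *Has2*. The neighbours *Ncan* (23.4 to 27.7 CPM per kilobase) and *Hapln4* (21.1 to 26.0 CPM per kilobase) overlapped over the libraries, as did *Acan* (0.493 to 0.834 CPM per kilobase) and *Has3* (0.336 to 0.553 CPM per kilobase). Within each of the 6 libraries *Ncan* was still above *Hapln4*, whereas *Has3* was above *Acan* in SP 3. For the remaining neighbours in this order the ranges over the libraries did not overlap. The order was unchanged when the longest transcript was used as the length.

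**Figure D1:**
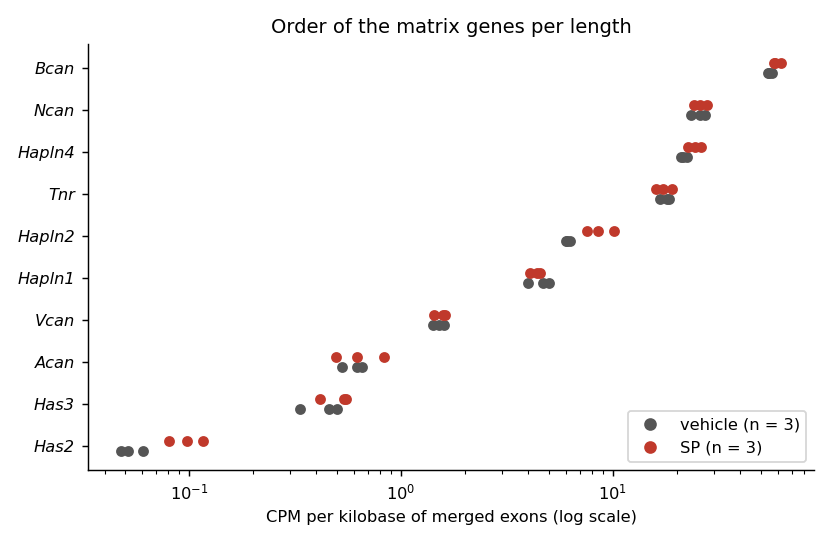
Expression of the 10 matrix genes per kilobase of merged exons on a log axis, with 1 point for each library (grey, vehicle; red, SP; n = 3 mice each). *Bcan* is highest with a mean of 57.3 CPM per kilobase, *Has2* is lowest with 0.0758, and the SP points of *Hapln2* lie to the right of the vehicle points.

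Among the lecticans, brevican and neurocan made up nearly all transcripts per length. *Bcan* held 66.6% ± 1.79 of lectican transcripts in the vehicle group and 68.0% ± 0.819 in the SP group (SD, n = 3 mice each). *Ncan* held 30.9% ± 1.75 and 29.5% ± 0.645, *Vcan* 1.83% ± 0.0737 and 1.76% ± 0.0948, and *Acan* 0.730% ± 0.0944 and 0.736% ± 0.157 (SD, n = 3 each). For each lectican the groups overlapped. Among the 3 link proteins *Hapln4* predominated, with 66.9% ± 2.02 in the vehicle group and 65.1% ± 0.426 in the SP group (SD, n = 3 each). The share of *Hapln2* was 18.7%, 18.7% and 19.4% in the vehicle libraries and 22.6%, 25.3% and 21.9% in the SP libraries. Here the groups did not overlap, and *Hapln1* had the smallest share in both. The shares rest on the annotated lengths and not on the isoforms in use, which gene counts do not resolve.

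The lecticans were examined next. *Acan* encodes aggrecan, the proteoglycan by which perineuronal nets are usually recognized. Its expression was 4.64, 4.89 and 3.96 CPM in the vehicle libraries and 4.65, 6.23 and 3.68 CPM in the SP libraries. The SP libraries held both the highest and the lowest value, and the spread within SP exceeded the difference between the groups. The log2 fold change was 0.09 (FDR 0.871, 95% interval -0.26 to 0.44, standard error 0.149). It was -0.05 without replicate 2, and library SP 2 had the highest value.

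*Bcan*, the gene of brevican, a lectican of glial origin found in nets and at nodes, had 220, 222 and 228 CPM in the vehicle libraries and 237, 254 and 235 CPM in the SP libraries. Each SP library exceeded each vehicle library, as in 9.30% of all tested genes. The log2 fold change was 0.12 (FDR 0.514, 95% interval -0.01 to 0.24, standard error 0.0531). *Ncan* encodes neurocan, a lectican most abundant in the developing brain. It had 197, 168 and 186 CPM in the vehicle libraries and 185, 200 and 174 CPM in the SP libraries, which overlapped, with a log2 fold change of 0.02 (FDR 0.951, 95% interval -0.16 to 0.20, standard error 0.0757). *Vcan*, the gene of versican, had 23.1, 20.5 and 21.9 CPM in the vehicle libraries and 23.4, 22.9 and 20.8 CPM in the SP libraries. These values also overlapped (log2 fold change 0.03, FDR 0.916, 95% interval -0.15 to 0.22, standard error 0.0780).

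Tenascin R, which cross-links lecticans, is made by oligodendrocytes and some interneurons. *Tnr* had 232, 215 and 237 CPM in the vehicle libraries and 223, 246 and 206 CPM in the SP libraries. Both the highest and the lowest library were from the SP group. The log2 fold change was -0.02 (FDR 0.945, 95% interval -0.20 to 0.16, standard error 0.0768).

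**Figure D2:**
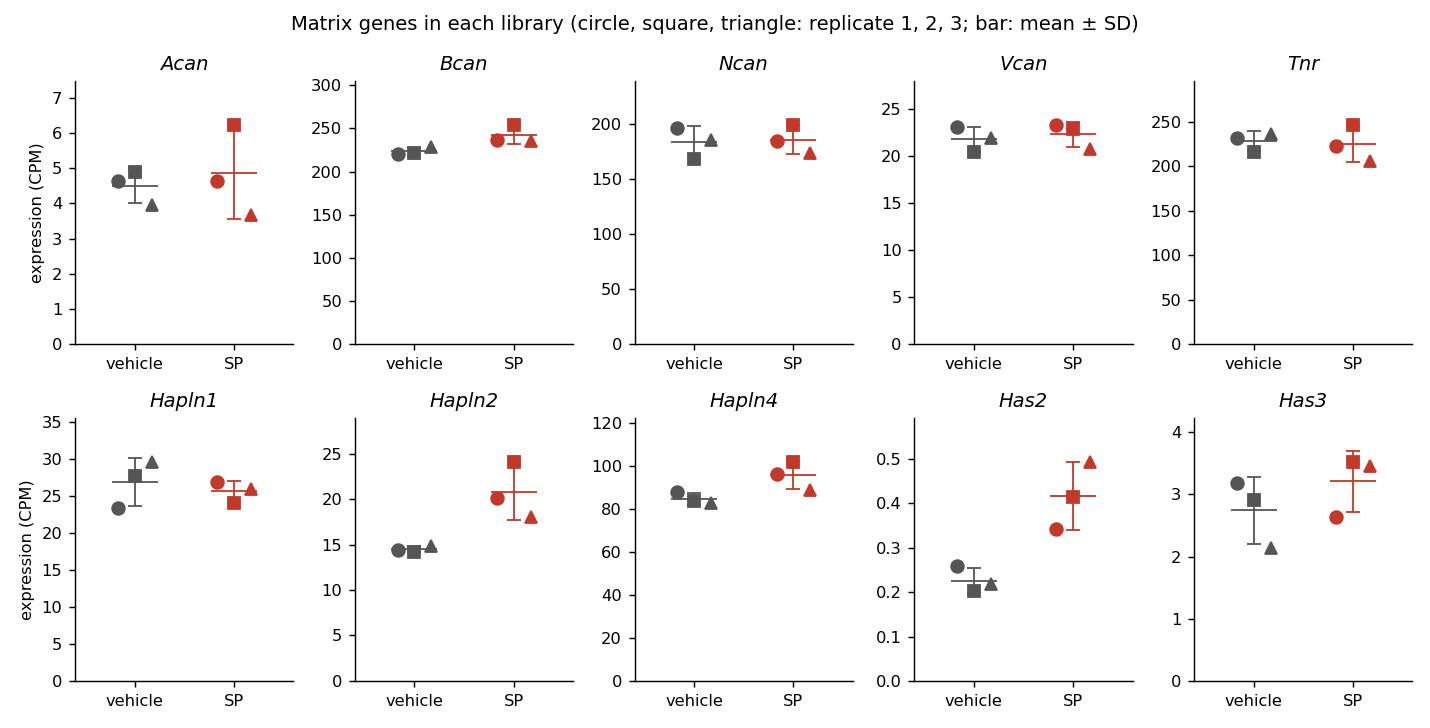
CPM of each of the 10 matrix genes in each library, with the axis of each panel starting at 0 (circle, square and triangle, replicate 1, 2 and 3; bars, mean ± SD over 3 mice). The groups are apart in *Hapln2*, *Hapln4*, *Bcan* and *Has2* and overlap in the other 6 genes, and SP 2 is the highest library in *Hapln2* with 24.1 CPM.

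The link proteins differed from each other. *Hapln2*, also known as Bral1, is made by oligodendrocytes and placed at the nodes of Ranvier, where it organizes the perinodal matrix. It had 14.4, 14.2 and 14.9 CPM in the vehicle libraries and 20.1, 24.1 and 18.0 CPM in the SP libraries. The vehicle mice were close together, and each SP mouse was above them. The means were 14.5 ± 0.339 CPM and 20.8 ± 3.11 CPM (SD, n = 3 mice each). The log2 ratio within replicate pairs was 0.48, 0.76 and 0.28. With edgeR the unadjusted p was 0.00148 and the FDR 0.319 (95% interval of the log2 fold change 0.26 to 0.75). When low counts were not filtered, *Hapln2* was past the thresholds (FDR 0.0146), as were 1.37% of all genes in that fit. It was also past them with DESeq2 without the block (FDR 0.0168, with 0.414% of genes called) and, with edgeR without the block, when library SP 3 was left out (FDR 0.0523, with 2.11% of genes called). Over all alternatives the FDR reached 0.712, and DESeq2 with the block gave an unadjusted p of 0.00298 but no adjusted value.

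*Hapln4*, or Bral2, is a link protein of perineuronal nets and the partner of brevican. It had 87.9, 83.8 and 82.6 CPM in the vehicle libraries and 96.1, 102 and 89.0 CPM in the SP libraries. The groups were apart, although vehicle 1 and SP 3 differed by little. The log2 fold change was 0.17 (FDR 0.411, 95% interval 0.04 to 0.31, standard error 0.0579), with an unadjusted p of 0.0185 in edgeR. *Hapln1*, a link protein of nets that binds aggrecan and versican, had 23.4, 27.7 and 29.7 CPM in the vehicle libraries and 26.9, 24.1 and 26.0 CPM in the SP libraries. These overlapped, and the log2 fold change was -0.07 (FDR 0.851, 95% interval -0.29 to 0.15, standard error 0.0942).

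The hyaluronan synthases were the lowest members per length. *Has3* had 3.18, 2.91 and 2.14 CPM in the vehicle libraries and 2.64, 3.53 and 3.46 CPM in the SP libraries. Its pairs disagreed in direction (log2 ratio -0.27, 0.28 and 0.69), and the log2 fold change of 0.23 had the widest interval of the tested members (FDR 0.755, 95% interval -0.27 to 0.73, standard error 0.214). For *Has3* the value was 0.01 without replicate 3, 0.48 without replicate 1 and 0.08 without vehicle 3. *Has2* had 6, 5 and 6 counts in the vehicle libraries and 8, 10 and 11 counts in the SP libraries. It did not pass edgeR's filter on low counts, so that it has no value in the test. In CPM its groups were 0.226 ± 0.0288 and 0.417 ± 0.0765 (SD, n = 3 each) and did not overlap. With no filter the log2 fold change of *Has2* was 0.86 (FDR 0.874, standard error 0.558). Without replicate 1, where it passed the filter, it was 1.10 (FDR 0.856, standard error 0.548). Neither value passed the thresholds.

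Of the 10 members, 9 passed the filter and were tested. Their median log2 fold change was 0.09, beside a median of 0.002 over all 16707 tested genes. An unadjusted p under 0.05 was found for 2 of the 9, *Hapln2* and *Hapln4*, both higher, where 4.53% of all tested genes were higher and 5.67% lower at that p. Without the block *Bcan* was added (3 members, 12% of all genes), and DESeq2 with the block left *Hapln2* alone (2.5% of all genes). In 3 of the 9 the groups did not overlap, with SP above, where the share over all tested genes was 9.30%. Counting either direction, the groups did not overlap in 18.4% of all tested genes. Within replicate pair 2 each tested member except *Hapln1* was higher in the SP mouse, whereas in pair 3 *Acan*, *Ncan*, *Vcan*, *Tnr* and *Hapln1* were lower. The unevenness of the pairs is seen in the plot of log2 fold changes, in which the squares of pair 2 lie farthest right for most genes. Without replicate 2 the log2 fold changes of *Hapln2*, *Hapln4* and *Bcan* were 0.38, 0.12 and 0.08, and those of *Ncan* and *Vcan* were -0.09 and -0.03.

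**Figure D3:**
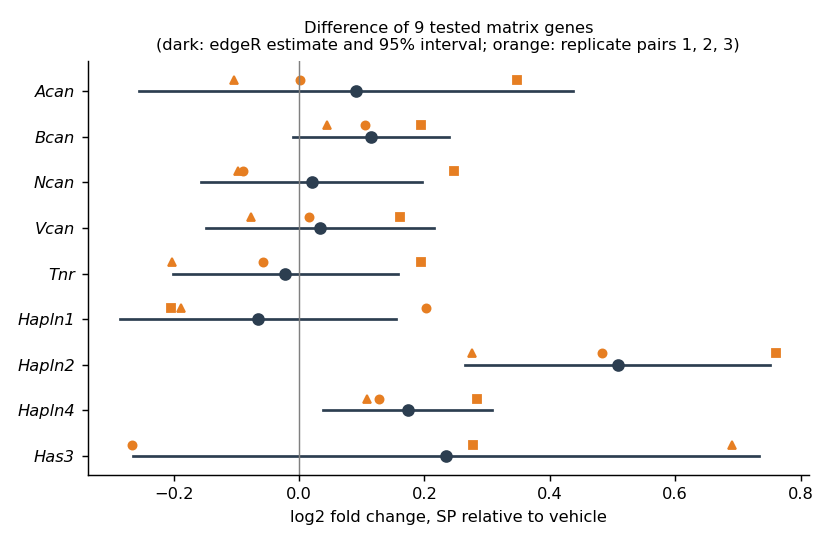
Log2 fold change of the 9 tested matrix genes, SP relative to vehicle. Dark points and lines are edgeR estimates with 95% intervals, and orange circles, squares and triangles are the log2 ratios within replicate pairs 1, 2 and 3. The intervals of *Hapln2* (0.26 to 0.75) and *Hapln4* (0.04 to 0.31) lie above 0, and those of the other 7 genes include 0.

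Since *Hapln2* is made by oligodendrocytes, its values were set beside 10 markers of oligodendrocytes and myelin, a list that shares no gene with the members. The CPM of these markers summed to 4334, 4339 and 4873 in the vehicle libraries and to 5526, 7127 and 4977 in the SP libraries. All 10 markers had a positive log2 fold change, from 0.28 to 0.39, and 8 of them had an unadjusted p under 0.05. The defining marker *Mbp*, which encodes myelin basic protein, had a log2 fold change of 0.38 (FDR 0.409). The lowest p of the list were those of *Mag*, the gene of myelin-associated glycoprotein (0.37, FDR 0.350), and *Opalin* (0.32, FDR 0.350). For *Mbp* and *Mag* the study reports the opposite direction. The myelin sum and *Hapln2* were both highest in SP 2, followed by SP 1, SP 3 and vehicle 3. *Hapln4* and the CA2 pyramidal cell gene *Rgs14* (98.0, 104 and 93.1 CPM in SP 1, SP 2 and SP 3) had the same order of the SP libraries. The parvalbumin interneuron gene *Pvalb* had another order (26.3, 17.4 and 23.8 CPM). How many of all tested genes share the order of *Hapln2* was not counted. In bulk tissue more cells of a type and more RNA per cell cannot be told apart, and the part of oligodendrocyte content in the *Hapln2* difference was not tested.

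Relative to the myelin sum, *Hapln2* was 3.32, 3.28 and 3.05 CPM per 1000 CPM of myelin markers in the vehicle libraries and 3.64, 3.38 and 3.62 in the SP libraries. On this scale the groups were still apart, but by little (3.32 in vehicle 1 and 3.38 in SP 2). The ratio of the means was 1.10 in place of the 1.42-fold difference in CPM. *Tnr*, also an oligodendrocyte product, was 53.4, 49.6 and 48.6 CPM per 1000 CPM of myelin markers in the vehicle libraries and 40.3, 34.6 and 41.3 in the SP libraries. On this scale each SP library was below each vehicle library for *Tnr*, and the same was true of *Ncan*, *Vcan* and *Hapln1*, with ratios of the means from 0.754 for *Hapln1* to 0.798 for *Vcan*. The CPM of these 4 genes overlapped between the groups, while the myelin sum they were divided by was higher with SP. A gene that is level in CPM falls on this scale when that sum rises. How many of all tested genes would be apart on this scale was not counted. Among 8 markers of oligodendrocyte precursors, the cells that also express *Vcan*, the median log2 fold change was 0.09 and 2 genes had an unadjusted p under 0.05, both higher. Their defining gene *Pdgfra* had a log2 fold change of -0.06 (FDR 0.784).

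**Figure D4:**
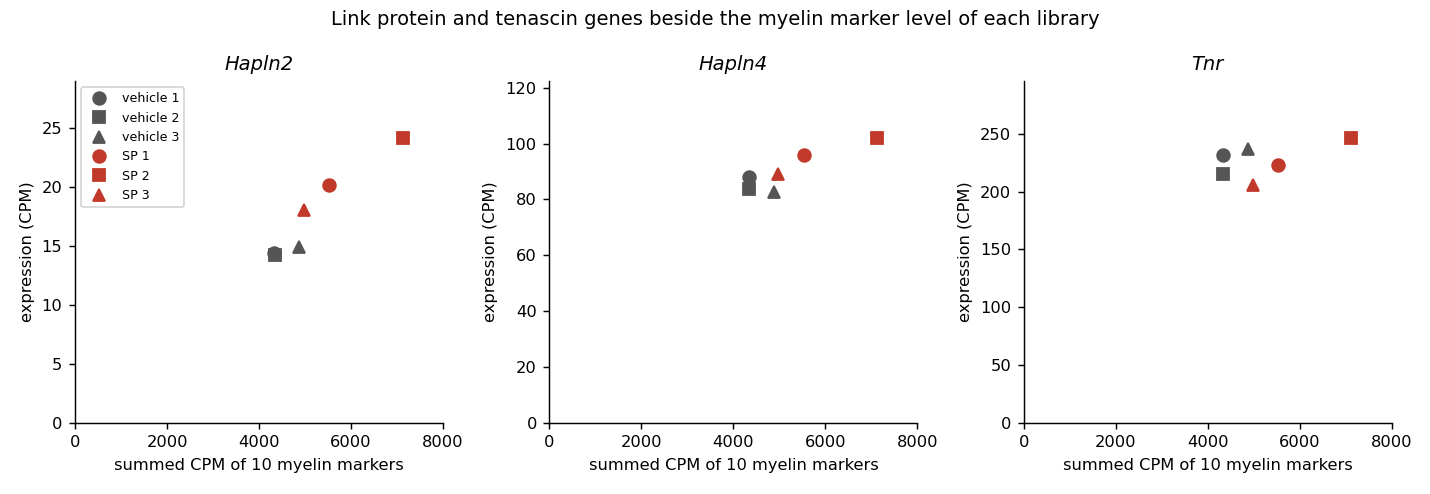
CPM of *Hapln2*, *Hapln4* and *Tnr* (vertical axes) against the summed CPM of 10 myelin markers (horizontal axes) in each library, all axes starting at 0. *Hapln2* is high where the myelin sum is high, up to 24.1 CPM at a sum of 7127 in SP 2. *Tnr* is also highest in SP 2, with 246 CPM. It is 232 CPM at a sum of 4334 in vehicle 1 and 223 CPM at 5526 in SP 1.

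Markers of the cells that carry nets were examined as well. Of 8 genes of parvalbumin interneurons, 0 had an unadjusted p under 0.05 in the higher and 2 in the lower direction, and the median log2 fold change was -0.07. *Pvalb* had 20.8, 20.4 and 19.7 CPM in the vehicle libraries and 26.3, 17.4 and 23.8 CPM in the SP libraries. The 2 lower genes were *Erbb4* (log2 fold change -0.35, FDR 0.320) and *Syt2* (-0.30, FDR 0.384), and for both each SP library was below each vehicle library. Of the list, 3 genes had a positive and 5 a negative log2 fold change, and *Pvalb* was among the positive ones (0.13, FDR 0.741). *Acan*, which marks the nets around these cells, was highest in SP 2, where *Pvalb* was lowest, a contrast that rests on that library. Of 6 CA2 pyramidal cell genes, 1 had an unadjusted p under 0.05, *Rgs14*, with a log2 fold change of 0.25 (FDR 0.341). For 7 astrocyte genes, cells that make brevican and neurocan, the median was 0.05, and the defining marker *Aqp4* had a log2 fold change of -0.02 (FDR 0.959).

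Signs of neighbouring tissue differed between libraries. The CPM of 6 choroid plexus genes summed to 169 in SP 1 and to between 2777 and 4694 in the other libraries, led by *Ttr* with 125 CPM in SP 1 and 2543 to 4301 CPM elsewhere. The cerebellar gene *Cbln3* had 10.5 CPM in SP 1 and at most 1.03 CPM in the others, and its list had a median log2 fold change of 1.72 over 5 tested genes. The summed CPM of that list was 71.3 in SP 1 but highest in vehicle 2 with 82.1. *Zic1* of the same list was also highest in vehicle 2, with 62.5 CPM against 30.6 CPM in SP 1 (log2 fold change -0.08). The 6 leptomeningeal fibroblast genes all had a negative log2 fold change, with a median of -0.21, but did not move alike between libraries. Their defining marker *Dcn* was lowest in SP 2 with 24.9 CPM against at least 70.3 CPM elsewhere, whereas *Lum* was highest there with 9.67 CPM. Cortical layer and subplate genes had a median of -0.24 (*Rorb*, log2 fold change -0.24), thalamic genes -0.06 (*Tcf7l2*, -0.10), striatal genes 0.03 (*Rgs9*, 0.04) and hippocampal neuron genes 0.24 (*Prox1*, 0.25). Without SP 1, and without the block, the log2 fold changes of *Hapln2*, *Hapln4* and *Bcan* were 0.54, 0.17 and 0.13. The part of tissue content in the other differences was not tested.

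The genes that act on or with this matrix were taken as 5 lists of 69 genes in all, of which 66 were tested. None passed the thresholds with edgeR. An unadjusted p under 0.05 was found for 16 of them, 6 higher and 10 lower, a share of 24.2% beside the 10.2% of all tested genes. The share was larger still, 33.75%, among the 80 tested marker genes of cell types and tissues (27 genes). A log2 fold change above 0 was found for 30 of the 66 and for 50.5% of all tested genes. The median log2 fold change over the 66 genes was -0.007. DESeq2 with the block called 1 of them, *Timp3*, and 0.0927% of all genes. With low counts kept, edgeR called 7, namely *Cd44*, *Sema3a*, *Chsy3*, *Timp3*, *Timp2*, *Adamts4* and *Adamts15*, with FDR from 0.00295 for *Cd44* to 0.0894 for *Adamts15*. That fit called 1.37% of all genes. DESeq2 without the block called 4, *Cd44*, *Sema3a*, *Timp3* and *Adamts4*, with FDR from 0.0207 for *Cd44* to 0.0913 for *Sema3a*. It called 0.414% of all genes.

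Among 15 other hyaluronan and net-associated genes, 13 had a negative log2 fold change, and 5 had an unadjusted p under 0.05, of which 4 were lower. *Cd44*, the main cell surface receptor for hyaluronan, had 9.54, 6.87 and 6.24 CPM in the vehicle libraries and 4.48, 3.11 and 4.58 CPM in the SP libraries. Each SP library was below each vehicle library, and the log2 fold change was -0.89 (FDR 0.319, 95% interval -1.28 to -0.50, standard error 0.167).

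*Sema3a*, a chemorepellent held in nets by chondroitin sulfate, had 6.45, 4.16 and 5.19 CPM in the vehicle libraries and 2.98, 3.07 and 3.23 CPM in the SP libraries, a log2 fold change of -0.75 (FDR 0.340, standard error 0.171). *Hyal3*, of the hyaluronidase family, was low at 0.908 ± 0.266 and 0.406 ± 0.197 CPM (SD, n = 3 mice each). Its log2 fold change was -1.16 (FDR 0.423, standard error 0.406), and -0.68 without replicate 1. *Cspg5*, which encodes the brain proteoglycan neuroglycan C, had a log2 fold change of -0.15 (FDR 0.448). *Nptx2*, a secreted pentraxin that gathers at synapses on parvalbumin interneurons, was the gene in the other direction, with 17.5 ± 0.213 and 20.4 ± 1.62 CPM (SD, n = 3 each) and a log2 fold change of 0.23 (FDR 0.422).

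Chondroitin sulfate chains give lecticans their charge. Of 20 tested enzymes that build or sulfate these chains, 11 had a positive and 8 a negative log2 fold change, and 1 was at 0.00. *Chsy3*, a chondroitin sulfate synthase, had 7.95, 6.99 and 6.64 CPM in the vehicle libraries and 4.39, 4.23 and 5.57 CPM in the SP libraries. These did not overlap, and the log2 fold change was -0.61 (FDR 0.350, standard error 0.151). *Xylt1*, which starts the chain on the core protein, had -0.15 (FDR 0.423), and *Chpf*, the polymerizing factor, had 0.14 (FDR 0.457).

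Lecticans are cleaved by ADAMTS proteases, which TIMP proteins inhibit. Of 12 tested genes of this kind, 6 had a positive and 6 a negative log2 fold change. *Adamts4*, an aggrecanase that in the adult brain is enriched in oligodendrocytes, had 21.9, 20.7 and 21.9 CPM in the vehicle libraries and 27.0, 36.2 and 24.7 CPM in the SP libraries. Like *Hapln2* it was highest in SP 2, then in SP 1 and SP 3, and the groups were apart (log2 fold change 0.43, FDR 0.380, standard error 0.120). Without replicate 2 the value for *Adamts4* was 0.24, and without replicate 3 it was 0.55. *Adamts15*, also a lectican-cleaving protease, went the other way with 7.59 ± 0.887 and 5.45 ± 0.407 CPM (SD, n = 3 each), a log2 fold change of -0.48 (FDR 0.359, standard error 0.129).

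*Timp3*, an inhibitor that binds to the matrix, had 118, 118 and 136 CPM in the vehicle libraries and 91.6, 96.7 and 113 CPM in the SP libraries. Each SP library was below each vehicle library, with a log2 fold change of -0.30 (FDR 0.319, standard error 0.0513). With DESeq2 and the block *Timp3* passed the thresholds (log2 fold change -0.30, FDR 0.0410). *Timp2* had 379, 348 and 361 CPM in the vehicle libraries and 313, 200 and 347 CPM in the SP libraries. Its log2 fold change of -0.38 (FDR 0.409, standard error 0.124) was -0.17 without replicate 2, and SP 2 was by far the lowest library.

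Chondroitin sulfate is sensed by receptors on axons. Of 4 such genes, *Ptprf*, a receptor phosphatase, had a log2 fold change of -0.19 (FDR 0.402), and the Nogo receptor family genes *Rtn4rl1* and *Rtn4r* had 0.16 each (FDR 0.425 and 0.479). Of 15 genes of the node of Ranvier and the paranode, 8 had a positive and 7 a negative log2 fold change, with a median of 0.003. *Cntn2*, which encodes an adhesion protein of the juxtaparanode, was the gene with an unadjusted p under 0.05. It had 127, 121 and 130 CPM in the vehicle libraries and 142, 176 and 134 CPM in the SP libraries, a log2 fold change of 0.25 (FDR 0.435, standard error 0.0929) that was 0.10 without replicate 2. The high value of *Cntn2* in SP 2 again coincided with the highest myelin sum.

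**Figure D5:**
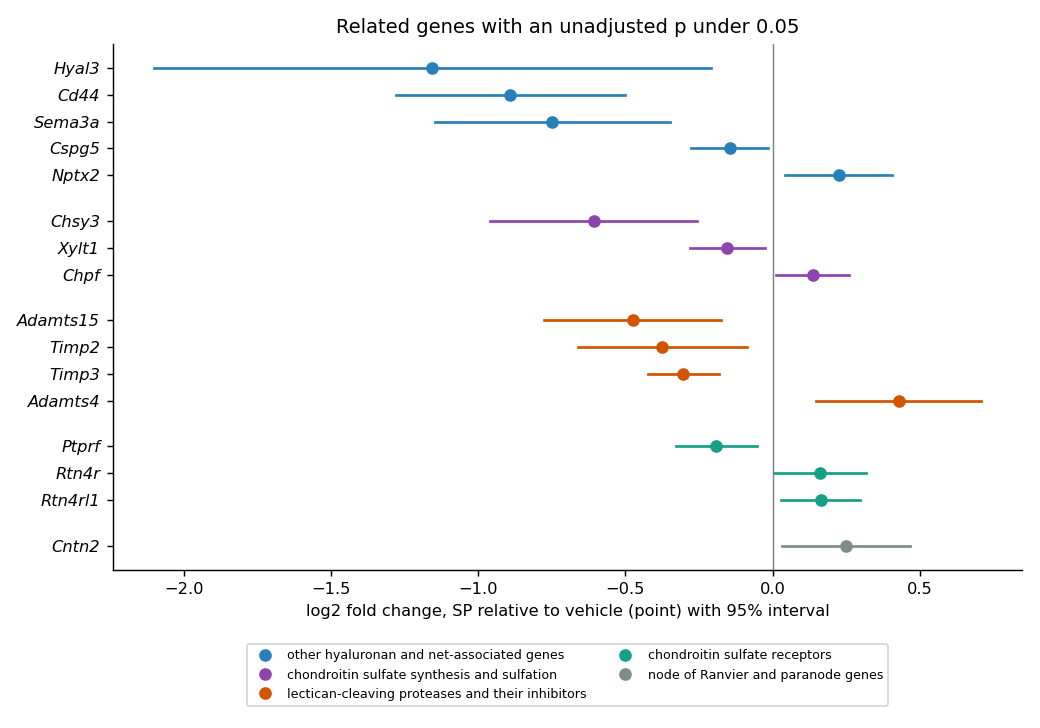
Log2 fold change, SP relative to vehicle, with 95% intervals from edgeR for the 16 related genes with an unadjusted p under 0.05, coloured by list. The genes run from *Hyal3* (-1.16) to *Adamts4* (0.43), with 10 below and 6 above 0, and none had an FDR under 0.1 in this test.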

How the data were processed

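The deposited values are estimated counts per gene from Salmon, which the authors ran in the Nextflow RNAseq pipeline after TrimGalore and after STAR alignment (GRCm38). They carry no scaling for depth or length. Of these expected counts 9.77% were not whole, and they were rounded. Versions and the annotation release are not given in the sources used here.

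Columns were matched to mice by name. In R 4.3.3, edgeR 4.0.16 was used with filterByExpr on group (minimum count 10), TMM and the quasi-likelihood test with the replicate number as a block, since the study's methods adjust for replicates and the labels name the number a batch. As a check of this pairing, deviations from group means were correlated across genes within each number, and Pearson's r was 0.0143, -0.0842 and 0.0225. These values show no shared deviation of mice with the same number. P-values were adjusted by Benjamini-Hochberg over 16707 genes, and the thresholds were FDR < 0.1 and |log2FC| > 0.3. For one gene and 3 mice a group, the smallest two-sided p of an exact permutation test is 0.1.

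Lengths and positions came from GENCODE M21. The steps were tested on simulated data of 16502 genes. Of 100 genes changed by 0.5 in log2, 55 were recovered, and of 97 changed by 1, 84 were recovered, beside 29 false calls. Alternatives were other filters, normalizations and tools (DESeq2 1.42.0, limma-voom in limma 3.58.1), no block, and leaving out replicate numbers or libraries. The members and the lists of genes were chosen with earlier results of these data known. Named related genes are those of each list with the lowest p, at most 5, under an unadjusted p of 0.05. Marker lists are represented by their defining gene, and *Ttr*, *Cbln3* and *Dcn* are given with their libraries. *Lum*, *Zic1*, *Erbb4* and *Syt2* were chosen after their values were seen.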

Additional observations from a re-analysis of the deposited data

How the results depend on the processing

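The 9 tested members were refitted under 18 alternatives, giving 162 log2 fold changes. Of these, 147 kept their direction and their side of the thresholds, 3 passed the thresholds, all of *Hapln2*, and 12 turned the other way, all of genes whose values lay near 0. With the replicate number left out as a block, 2 genes of the whole table passed, 0 of them a member, and 3 members had an unadjusted p under 0.05 in place of 2, the third being *Bcan*. No call on a member changed with the block in edgeR. The number of genes called was 0 in the main test, 384 with no filter on low counts, 26 with DESeq2 and the block, 116 with DESeq2 and no block, 2 with limma-voom and 5 with filterByExpr on the design, an alternative chosen after seeing the data. The last tested 17069 genes, and 0 members were among its calls. Leaving out a replicate number gave 9 to 36 genes, and leaving out 1 library gave 1 to 357, the most without SP 3.

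The number of members called was 1 with no filter, 1 with DESeq2 and no block, and from 0 to 1 when a replicate or library was left out. DESeq2 with the block left 1 member with an unadjusted p under 0.05, and leaving out a replicate or library left 1 to 3. Of the related genes, 7 were called with no filter, 1 with DESeq2 and the block, 4 with DESeq2 and no block, and from 0 to 5 when a replicate or library was left out. Of all genes these fits called, in the same order, 1.37%, 0.0927%, 0.414% and from 0.0059% to 2.11%. In the 16 named related genes no direction changed in any of 287 values. With single libraries left out and no block, the lowest and highest log2 fold changes were -0.106 to 0.272 for *Acan*, -0.040 to 0.072 for *Ncan*, -0.011 to 0.078 for *Vcan*, -0.162 to 0.006 for *Hapln1* and -0.090 to 0.036 for *Tnr*. With a replicate number left out they were -0.050 to 0.176 for *Acan*, -0.094 to 0.075 for *Ncan*, -0.031 to 0.085 for *Vcan*, -0.196 to 0.003 for *Hapln1* and -0.130 to 0.066 for *Tnr*. The values that turned were -0.050 without replicate 2 and -0.106 without SP replicate 2 for *Acan*, -0.094 without replicate 2 and -0.040 without vehicle replicate 2 and -0.034 without SP replicate 2 for *Ncan*, -0.031 without replicate 2 and -0.011 without vehicle replicate 2 for *Vcan*, 0.003 without replicate 2 and 0.006 without vehicle replicate 3 for *Hapln1* and 0.066 without replicate 3 and 0.009 without vehicle replicate 3 and 0.036 without SP replicate 3 for *Tnr*. *Hapln2* ranged from 0.38 without replicate 2 to 0.62 without replicate 3. *Has3* ranged from 0.009 without replicate 3 to 0.478 without replicate 1. Why the calls moved was not tested. With another filter both the number of genes in the adjustment and the unadjusted p change. For *Hapln2* the unadjusted p in edgeR was 0.00148 in the main test and 4.44e-05 with no filter. With the longest transcript as the length, *Bcan* held 71.8% and 73.1% of lectican transcripts in vehicle and SP. Depth limits *Has2* and *Hyal3*, which had few counts.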
